A study of Arabidopsis thaliana with 20 samples.

Results

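The small RNAs of 22 nt that come from a hairpin RNA against EIN2 were examined in 15 libraries made from Arabidopsis thaliana plants at 3 weeks. They were chosen by length and strand alone. Sense reads were taken on the stem that the hairpin carries, and antisense reads on the perfectly paired stem. They came to 295809 of the 3505995 stem reads of 20 to 24 nt (8.44%), against 1886992 reads of 21 nt (53.8%). EIN2 (AT5G03280), a membrane protein required for ethylene signalling, occupies positions 787428 to 793404 of chromosome 5 (assembly TAIR10.1). Which stretch of the gene forms the stem is not stated by the labels, so positions and sequences of the siRNAs were not analysed here.

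All plants were of ecotype Columbia and carried 1 of 2 transgenes. The WT hairpin (7 libraries) pairs perfectly, and the G:U hairpin (8 libraries) has wobble pairs in its stem. A first table held otherwise wild-type plants, called Columbia here, numbered 15 and 17 for the WT hairpin and 12 and 13 for G:U. A second table held otherwise wild-type plants, called Col-0 here, with WT library 15 and G:U libraries 12 and 13. It also held nrpd1a mutants, numbered 2 and 3 for WT and 2 and 18 for G:U, and ocp11 mutants, numbered 10 and 11 for WT and 4 and 6 for G:U. NRPD1a is the catalytic subunit of RNA polymerase IV, whose transcripts give rise to 24-nt siRNAs in Arabidopsis, and ocp11 is a mutant allele of the gene for ARGONAUTE4, which binds 24-nt siRNAs. RNA came from whole plants, in which fewer cells making an siRNA and less of it per cell cannot be told apart. The labels do not give the promoter of the transgene, nor whether 2 libraries of 1 group were made from different plants or from a pool. The p-values therefore measure only the spread between these libraries. Plants without a hairpin were not analysed here.

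The paired stem of a hairpin RNA is a substrate of Dicer-like (DCL) enzymes, which cut it into short duplexes. In Arabidopsis DCL4 makes 21-nt siRNAs, which guide cleavage of matching messenger RNA, and DCL2 makes 22-nt siRNAs, which are known for setting off secondary siRNA production from a target transcript. DCL2 takes over part of the work of DCL4 when DCL4 is missing, as in antiviral defence, and DCL3 makes the 24-nt class. Only the antisense strand can pair with the EIN2 messenger RNA. No plant with a changed DCL gene was among the 15 libraries, so the reads are assigned to a length and not to an enzyme.

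Depth at 20 to 24 nt lay between 11547 and 969784 stem reads in a library, and library totals were not used. Each result is therefore a ratio of reads within a library. It shows which class was large relative to another, not how abundant either was in the plant. Intervals of single libraries are 95% exact Clopper-Pearson intervals and cover counting error only. The widest was that of nrpd1a WT library 3, which reached 15.1% from the value for the strand ratio at 22 nt.

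Among the 22-nt siRNAs the antisense strand was less frequent, relative to the sense strand, with the G:U hairpin than with the WT hairpin. Antisense 22-nt reads per sense 22-nt read ran from 0.495 to 1.45 in the 7 WT libraries (median 0.645) and from 0.136 to 0.342 in the 8 G:U libraries (median 0.228). Sense reads were the more frequent in 14 of 15 libraries, the exception being Col-0 WT library 15.

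In Columbia, WT library 15 had 4660 antisense and 8464 sense 22-nt reads, a ratio of 0.551, and WT library 17 had 2782 and 5624, a ratio of 0.495. G:U library 12 had 1432 antisense and 7865 sense reads (0.182) and G:U library 13 had 2286 and 16856 (0.136). The ratios were 0.523 ± 0.0395 (SD, n = 2) for WT and 0.159 ± 0.0328 (SD, n = 2) for G:U, 3.32-fold apart by geometric mean and without overlap.

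In Col-0, WT library 15 had 22150 antisense and 15236 sense reads, a ratio of 1.45 (interval 1.42 to 1.48), the highest of all. G:U library 12 had 2065 and 7303 reads (0.283) and G:U library 13 had 2659 and 10572 (0.252), a group value of 0.267 ± 0.0221 (SD, n = 2). The G:U ratio was 5.45-fold lower than in the single WT library.

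In nrpd1a, WT library 2 had 876 antisense and 1374 sense reads (0.638) and WT library 3 had 335 and 519 (0.645). The G:U libraries there were the highest of their hairpin, with 1047 and 3404 reads (0.308) in library 2 and 1510 and 4415 (0.342) in library 18. The group values were 0.642 ± 0.00560 and 0.325 ± 0.0244 (SD, n = 2 each), 1.98-fold apart, the smallest gap of the 4 backgrounds.

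In ocp11, WT library 10 had 8572 antisense and 12477 sense reads (0.687) and WT library 11 had 13852 and 19967 (0.694). G:U library 4 had 6338 and 31083 reads (0.204) and G:U library 6 had 9865 and 70221 (0.140). WT stood at 0.690 ± 0.00475 and G:U at 0.172 ± 0.0448 (SD, n = 2 each), 4.08-fold apart. In each of the 4 backgrounds every G:U library lay below every WT library.

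The hairpins were compared by an exact permutation test of log2 ratios within the backgrounds that have 2 libraries of each hairpin in a table, namely Columbia, nrpd1a and ocp11. The strand ratio at 22 nt fell by 1.58 on the log2 scale from WT to G:U (SD over the 3 backgrounds 0.54), or 2.99-fold. The exact permutation p was 0.00926, the smallest this design gives, and the Benjamini-Hochberg adjusted p over 17 ratios was 0.0262. Those 17 were the strand ratio at each of the 5 lengths, the ratio of each other length to 21 nt on each strand, and the antisense over sense quotient of these. Of the 17, 10 passed the threshold of 0.05 (58.8%). The 22-nt class supplied 3 of them, of its 4 ratios, so a call there is not unusual for this comparison.

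The same fall was larger at 21 nt, where antisense reads per sense read went from 0.893 to 2.88 in WT libraries and from 0.148 to 0.342 in G:U libraries. That ratio fell by 2.63 on the log2 scale, or 6.21-fold (exact permutation p = 0.00926, adjusted p = 0.0262). By background the fall at 21 nt was 9.82-fold for Columbia, 6.40-fold for Col-0, 5.47-fold for nrpd1a and 4.46-fold for ocp11, in each case more than at 22 nt. At 20 and 24 nt the strand ratio fell 4.10-fold and 3.96-fold, also more than at 22 nt (exact permutation p = 0.00926, adjusted p = 0.0262 for both). At 23 nt the strand ratio did not pass (log2 difference 0.07, exact permutation p = 0.787, adjusted p = 0.787).

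On the antisense strand the number of 22-nt reads per 21-nt read, a measure of the DCL2 length against the DCL4 length, was higher in G:U plants in Columbia and nrpd1a, and not in Col-0 or ocp11. It ran from 0.0422 to 0.233 in WT libraries (median 0.107) and from 0.114 to 0.215 in G:U libraries (median 0.172). Columbia WT library 15 gave 0.0422 and WT library 17 gave 0.121, while G:U libraries 12 and 13 gave 0.171 and 0.141. Both G:U libraries lay above both WT libraries, but WT library 17 lay closer to them than to WT library 15. The WT mean was 0.0816 ± 0.0557 (SD, n = 2) against 0.156 ± 0.0213 (SD, n = 2).

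In nrpd1a the WT values were 0.0718 and 0.0721, and both G:U values were 0.173, a 2.41-fold difference. The libraries of each hairpin agreed more closely than counting error, with widest intervals of 0.0643 to 0.0805 (WT library 3) and 0.162 to 0.185 (G:U library 2). The intervals of the hairpins did not overlap. In ocp11 the WT values were 0.107 and 0.118 and the G:U values 0.115 and 0.114, so that the G:U libraries lay between the WT libraries. In Col-0 the WT library, at 0.233 (interval 0.230 to 0.237), stood above both G:U libraries, at 0.188 and 0.215. The difference was therefore 1.12, 1.27 and 0.03 on the log2 scale in Columbia, nrpd1a and ocp11, and -0.21 in Col-0.

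Over Columbia, nrpd1a and ocp11 the antisense 22-to-21-nt ratio rose by 0.80 on the log2 scale from WT to G:U (SD over the 3 backgrounds 0.68), or 1.75-fold. It passed narrowly (exact permutation p = 0.0278, adjusted p = 0.0472). The call ended when Columbia WT library 15 was left out (0.55, exact permutation adjusted p = 0.0859), and likewise without Columbia G:U library 12 (0.76), G:U library 13 (0.85), WT library 10 (0.78) or G:U library 4 (0.80) of ocp11. In the 20 to 24 nt share of the antisense strand in place of the ratio to 21 nt, the difference was 0.36 (exact permutation adjusted p = 0.200), and within the second table, with Col-0 in place of Columbia, it was also 0.36 (adjusted p = 0.294). With Col-0 added as a background it was 0.55 (exact permutation adjusted p = 0.0962), and with same-numbered libraries of both tables averaged 0.66 (adjusted p = 0.0525).

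On the sense strand the ratio of 22-nt to 21-nt siRNAs did not pass the test between hairpins. Sense 22-nt reads per sense 21-nt read ran from 0.138 to 0.314 in WT libraries (median 0.175) and from 0.116 to 0.233 in G:U libraries (median 0.161). The values in Columbia were 0.221 and 0.218 for WT and 0.169 and 0.153 for G:U, without overlap. In Col-0 the WT library had 0.314 (interval 0.308 to 0.319) and the G:U libraries 0.228 and 0.233.

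In nrpd1a, sense 22-nt reads per 21-nt read were 0.138 and 0.150 for WT and 0.116 and 0.135 for G:U. The ocp11 libraries overlapped, with 0.155 and 0.175 for WT and 0.129 and 0.184 for G:U. The G:U mean was lower in all 4 backgrounds, with log2 differences of -0.45 for Columbia, -0.44 for Col-0, -0.20 for nrpd1a and -0.10 for ocp11. Over Columbia, nrpd1a and ocp11 the difference was -0.25 (SD over the 3 backgrounds 0.18), or 1.19-fold lower in G:U, and did not pass (exact permutation p = 0.0556, adjusted p = 0.0787). With ocp11 G:U library 6 left out it did pass (-0.33, exact permutation adjusted p = 0.0197), and so it did with Col-0 added as a background (-0.30, adjusted p = 0.0262).

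Within each WT library the 22-nt siRNAs were a smaller part of the antisense strand than of the sense strand, relative to 21 nt. The antisense 22-to-21-nt ratio divided by the sense one was 0.191 and 0.554 in Columbia WT libraries 15 and 17, and 0.745 in Col-0 WT library 15. It was 0.519 and 0.480 in nrpd1a, and 0.692 and 0.671 in ocp11. All 7 quotients were below 1, and by geometric mean the sense ratio was 1.96-fold the antisense ratio. An exact sign-flip permutation test over the 7 libraries gave p = 0.0156, the smallest it can give, and an adjusted p of 0.0417.

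That call was 1 of 3 among 8 such strand comparisons (37.5%), which covered 20, 22, 23 and 24 nt against 21 nt in both hairpins. The pattern was not particular to 22 nt. In WT libraries the sense 20-to-21-nt ratio was 1.49-fold the antisense one and also passed (exact sign-flip permutation p = 0.0156, adjusted p = 0.0417). At 24 nt it was 1.65-fold and did not pass (exact sign-flip permutation adjusted p = 0.0625), and neither did 23 nt, at 1.20-fold (adjusted p = 0.571). The remaining call was for 23 nt in G:U libraries and had the opposite direction. There the antisense 23-to-21-nt ratio was 3.75-fold the sense one (exact sign-flip permutation p = 0.00781, adjusted p = 0.0417). With any 1 WT library left out the log2 value at 22 nt was from -1.06 to -0.73. The exact permutation p was then 0.03125 each time, the smallest that the remaining libraries can give, and the adjusted p, from 0.0625 to 0.0781, did not pass. In raw reads, antisense exceeded sense in 5 of the 7 WT libraries at 21 nt and in 1 of 7 at 22 nt. The strand ratio at 22 nt was the lowest of the 5 lengths in 5 of 7 WT libraries.

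In G:U libraries the quotient of the antisense over the sense 22-to-21-nt ratio lay on both sides of 1. It was 1.01 and 0.919 in Columbia, 0.826 and 0.925 in Col-0, 1.49 and 1.28 in nrpd1a, and 0.892 and 0.622 in ocp11. Columbia G:U library 12 and both nrpd1a libraries were above 1, and the other 5 were below. The mean log2 value was -0.05 and did not pass (exact sign-flip permutation p = 0.703, adjusted p = 0.703). By geometric mean a G:U library held 0.219 antisense reads per sense read at 22 nt and 0.227 at 21 nt.

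Between hairpins the quotient rose from WT to G:U by 1.05 on the log2 scale (SD over the 3 backgrounds 0.80), or 2.08-fold (exact permutation p = 0.0278, adjusted p = 0.0472). This is the same quantity as the gap between the falls in strand ratio at 21 and 22 nt. By background it was 2.96-fold in Columbia, 2.76-fold in nrpd1a, 1.17-fold in Col-0 and 1.09-fold in ocp11, where the hairpins overlapped. As for the antisense ratio, the call ended without Columbia WT library 15 (0.80, exact permutation adjusted p = 0.0675), Columbia G:U library 12 (1.03), Columbia G:U library 13 (1.08), WT library 10 (1.06) or G:U library 4 (0.97) of ocp11, and within the second table (0.61, adjusted p = 0.118). It ended too in the 20 to 24 nt share (0.61, exact permutation adjusted p = 0.157) and with same-numbered libraries of both tables averaged (0.87, adjusted p = 0.0525).

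Next to the other lengths, 22 nt was a minor class on both strands. As a share of 20 to 24 nt, antisense 22-nt reads were 3.47% and 7.60% in the Columbia WT libraries, 10.4% in the Col-0 WT library, 5.26% and 5.34% in nrpd1a WT and 6.88% and 6.85% in ocp11 WT. For the G:U hairpin they were 8.28% and 7.83% in Columbia, 9.76% and 10.9% in Col-0, 8.56% and 8.83% in nrpd1a and 6.62% and 4.79% in ocp11. On the antisense strand 22 nt was the least frequent of the 5 lengths in all 8 G:U libraries and in no WT library. On the sense strand 13 of the 15 libraries had 1 less frequent length than 22 nt and the other 2 had 2, with 22 nt at 6.75% to 14.5% of reads.

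On the antisense strand 23-nt reads outnumbered 22-nt reads in all 8 G:U libraries and in no WT library. Antisense 22-nt reads per 23-nt read ran from 1.12 to 2.89 in WT libraries, all above 1, and from 0.182 to 0.913 in G:U libraries, all below 1. The tested form, antisense 23-nt reads per 21-nt read, rose 7.17-fold from WT to G:U (log2 2.84, exact permutation p = 0.00926, adjusted p = 0.0262). On the sense strand 22-nt reads outnumbered 23-nt reads in all 15 libraries, from 1.58 to 6.57 per 23-nt read in WT and from 1.73 to 2.79 in G:U. Against the DCL3 length, antisense 22-nt reads per 24-nt read ran from 0.321 to 1.47 in WT and from 0.227 to 0.955 in G:U, and sense ones from 0.305 to 1.87 and from 0.292 to 0.597. These ranges overlap on both strands. Antisense 24-nt reads per 21-nt read rose 2.17-fold from WT to G:U and passed (exact permutation p = 0.0185, adjusted p = 0.0394). The rise over 21 nt was therefore not particular to 22 nt. For 20 nt it was 1.32-fold and did not pass (exact permutation adjusted p = 0.133).

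Loss of RNA polymerase IV and the ARGONAUTE4 mutation act on the 24-nt pathway, and the second table allows the 22-nt class to be compared between both mutants and Col-0. Beside the WT hairpin, the antisense 22-to-21-nt ratio of the mutants was 2.60-fold lower than in the Col-0 library and the sense ratio 2.03-fold lower. Beside the G:U hairpin they were 1.43-fold and 1.66-fold lower. On the sense strand all 8 mutant libraries lay below the Col-0 libraries of their hairpin, and so they did on the antisense strand.

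None of this passed. Over both hairpins the mutants differed from Col-0 by -0.95 on the antisense strand (SD over the 2 hairpins 0.61) and by -0.88 on the sense strand (SD 0.21). Each had an exact permutation p of 0.0133, the smallest this design gives, and an adjusted p of 0.0567. The strand ratio at 22 nt differed by -0.66 (exact permutation p = 0.0800, adjusted p = 0.151). By this exact permutation test 0 of 17 ratios passed (0%), and 5 had an unadjusted p under 0.05. Besides the 22-nt ratios these were the strand ratio at 21 nt (-0.59) and the antisense (-0.60) and sense (-0.48) 20-to-21-nt ratios. A fall relative to 21 nt was thus not particular to 22 nt. The sense ratios of 23 and 24 nt to 21 nt differed by -1.10 and -0.88. The antisense ones differed by -0.90 and -0.52, but rose with the G:U hairpin (0.41 and 0.54). The sense and antisense 22-to-21-nt ratios passed without ocp11 WT library 11 (-0.91 and -1.01, exact permutation adjusted p = 0.0472 for both). The WT arm of Col-0 is a single library. Without it, which leaves the G:U hairpin alone, the antisense difference was -0.52 and the sense difference -0.73, and the strand ratio differed by -0.19 (exact permutation adjusted p from 0.162 to 0.779).

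The first table's Columbia libraries, which carry the same ecotype label as Col-0, were not among these controls. With them added the antisense difference was -0.28 (exact permutation adjusted p = 0.600), the sense difference -0.58 (adjusted p = 0.0139) and the strand ratio difference was 0.03 (adjusted p = 0.965). The fall of the sense ratio thus passed with all 7 control libraries, while the antisense one was smaller. All mutants were in the second table, so adding the first table's libraries mixes table with background. Libraries with equal numbers in both tables may come from 1 plant line, in which case the 7 are not independent.

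The order of the mutants was not the same with both hairpins, a difference that was not tested. With the WT hairpin, nrpd1a had 0.0720 ± 0.000175 antisense 22-nt reads per 21-nt read and ocp11 had 0.112 ± 0.00720 (SD, n = 2 each). With the G:U hairpin the values were 0.173 ± 0.000296 for nrpd1a and 0.115 ± 0.000723 for ocp11 (SD, n = 2 each). So nrpd1a was below ocp11 with the WT hairpin and above it with the G:U hairpin, without overlap in either. The SDs of nrpd1a were smaller than counting error (interval 0.0643 to 0.0805 for WT library 3) and do not measure the spread between plants. The difference over both hairpins was -0.02 on the log2 scale (exact permutation p = 1, smallest possible 0.0556).

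The strand ratio at 22 nt had the same order, with nrpd1a at 0.642 and ocp11 at 0.690 for the WT hairpin and at 0.325 and 0.172 for the G:U hairpin. For the WT hairpin the counting intervals of nrpd1a libraries 2 and 3, 0.585 to 0.694 and 0.561 to 0.742, took in both ocp11 values. Over both hairpins the strand ratio differed by 0.42 (exact permutation p = 0.333, adjusted p = 0.436). Sense 22-nt reads per 21-nt read stood at 0.144 ± 0.00840 for nrpd1a and 0.165 ± 0.0141 for ocp11 with WT, and 0.126 ± 0.0136 and 0.156 ± 0.0385 with G:U (SD, n = 2 each), a difference of -0.24 (exact permutation p = 0.167, adjusted p = 0.315). Whether the difference between hairpins was not the same in the mutants as in Col-0 was tested by permuting backgrounds within hairpins. This treats mutants and Col-0 as exchangeable, so a shift common to both hairpins widens the permuted values and the test cannot isolate the difference. The Col-0 WT arm is a single library. The G:U minus WT log2 difference in the mutants minus that in Col-0 was 0.94 for the strand ratio at 22 nt and 0.29 for the sense 22-to-21-nt ratio. Both are positive because the G:U value lay less far below WT in the mutants. It was 0.86 for the antisense 22-to-21-nt ratio, for which G:U lay below WT in Col-0 and above it in the mean of the mutants. None passed (exact permutation adjusted p = 0.389, 0.810 and 0.510, in this order).

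Columbia and Col-0 are the same genotype by their labels but come from tables that the submitters name as separate batches. Both hold a WT library 15 and G:U libraries 12 and 13. The labels do not say whether equal numbers mark the same plant line. For WT library 15 the antisense 22-to-21-nt ratio was 5.53-fold higher in the second table, the sense ratio 1.42-fold and the strand ratio 2.64-fold. For G:U library 12 the corresponding values were 1.10-fold, 1.35-fold and 1.55-fold, and for G:U library 13 they were 1.53-fold, 1.52-fold and 1.85-fold.

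All 9 of these quotients were above 1. Over both hairpins the second table exceeded the first by 1.12 in the strand ratio at 22 nt, by 1.04 in the antisense and by 0.52 in the sense 22-to-21-nt ratio on the log2 scale. None passed (exact permutation p = 0.0556, 0.167 and 0.0556, where 0.0556 is the smallest possible, adjusted p = 0.236, 0.472 and 0.236). The gap between tables was not particular to 22 nt. It was 1.20 for the strand ratio at 20 nt, and 1.77 and 1.56 for the antisense and sense 24-to-21-nt ratios. The 20-to-21-nt ratios differed by 0.15 on the antisense strand and by -0.45 on the sense strand. For the antisense 22-to-21-nt ratio the gap between tables was 2.06-fold over both hairpins, beside a mean difference of 1.75-fold between hairpins. Of the same-numbered libraries, WT library 15 had a wider gap than that difference (5.53-fold), and G:U libraries 12 and 13 had narrower ones (1.10-fold and 1.53-fold). The 5.53-fold gap rests on Columbia WT library 15, whose ratio of 0.0422 was the lowest of the WT libraries. Columbia WT library 17 had 0.121. What differed between the tables besides their names was not tested.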

How the data were processed

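The authors deposited raw counts of reads by stem, strand and length for each library. The tools cutadapt and Bowtie 1.0 and the build TAIR10 are named per the submitters' processing notes. How many mismatches were allowed, where a read matching both stems was counted and which reads were filtered is not given in the sources used here. Each could change the number of reads counted on a stem. In G:U libraries 0.125% to 2.38% of sense 22-nt reads were on the WT stem. The labels name 20 samples. Of these, 15 were used and 5, with a hairpin against GUS, were not analysed here.

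The second table lists 4 entries per library, which were summed as runs of 1 library. In 22 chi-square tests of 22-nt against 21-nt reads among runs, the lowest p was 0.00903 (Benjamini-Hochberg adjusted p = 0.199). Groups came from titles. Both ocp11 G:U samples have a genotype label that names the WT hairpin, and for 3 samples the target gene label is not EIN2. The title was followed in each case. The nrpd1a WT library 3 has the number 13 in the table and was matched as the remaining library of its group.

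Only lengths of 20 to 24 nt were used. Log2 ratios were compared by exact two-sided permutation tests, within Columbia, nrpd1a and ocp11 for hairpins and within hairpins for backgrounds, with Benjamini-Hochberg adjustment over 17 ratios and a threshold of 0.05. Strands were compared by exact sign flips over libraries, adjusted over 8. Libraries had equal weight in tests and group means, while the shares of 8.44% and 53.8% of all stem reads are sums, to which deep libraries contribute most. By the naming rule the 22-nt class is given in full, 21 nt as its denominator and other lengths as ranges or test values. Only the permutation test between hairpins was checked on simulated data, for the antisense 22-to-21-nt ratio. The simulated spread was smaller than that of the Columbia WT libraries (log2 SD 1.07). The other tests were not simulated. Python 3.11.15, numpy 2.4.6 and scipy 1.17.1 were used. The members, ratios, tests and alternatives were chosen with earlier results of these data known. Alternatives covered the stem, denominator, scale, an added read, single runs, strata, controls, pairing and each library left out.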

Additional observations from a re-analysis of the deposited data

Results flagged for a closer look

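In 2 cases a single library stood far from the others of their hairpin. Among the 7 WT libraries the antisense-to-sense ratio at 22 nt was 1.45 in Col-0 WT library 15, and the antisense over sense 22-to-21-nt quotient was 0.191 in Columbia WT library 15. These were 2 of 8 sets of libraries examined. The rule used would single out about 1 in 20 sets drawn from a single normal population. That rate does not apply here, because each set pools backgrounds and both tables and the ratios share counts. Col-0 WT library 15 is also the only WT library of its background. Both libraries have the number 15, 1 in each table.

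Some differences had opposite directions in groups under the same contrast, with every library on its side. None of the differences between directions in this paragraph was tested by itself. On the log2 scale the strand ratio at 22 nt in nrpd1a minus Col-0 was -1.18 with the WT hairpin and 0.28 with the G:U hairpin. In nrpd1a minus ocp11 it was -0.11 and 0.94, the -0.11 being within the counting intervals of the nrpd1a WT libraries. The antisense 22-to-21-nt ratio in G:U minus WT was 1.12 in Columbia and 1.27 in nrpd1a, -0.21 in Col-0 and 0.0292 in ocp11, where the libraries overlapped. In nrpd1a minus ocp11 it was -0.64 with the WT hairpin and 0.59 with the G:U hairpin. The antisense over sense quotient in nrpd1a minus Col-0 was -0.58 and 0.66, and in nrpd1a minus ocp11 -0.45 and 0.89.

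Reads on the other stem were outside the main measurement. In G:U libraries sense 22-nt reads on the WT stem were from 0.125% (ocp11 library 4) to 2.38% (Col-0 library 13) of sense 22-nt reads on both stems. Antisense 22-nt reads on the GU stem were from 0.139% (Columbia library 12, 2 reads) to 2.04% (ocp11 library 6, 205 reads) of antisense 22-nt reads on both stems.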

How the results depend on the processing

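Of 412 alternative values over 22 results, 357 kept direction and side of the threshold, 34 kept direction but no longer passed, 7 newly passed and 14 reversed. Values here are log2 differences unless said otherwise, with exact permutation adjusted p in parentheses, and where a value moved without its construction showing why, the cause was not tested. Between hairpins the strand ratio at 22 nt kept its call with each library left out (-1.67 to -1.49) and lost it without the ocp11 background (-1.36, 0.0787) or the nrpd1a background (-1.88, 0.135). Those designs have a smallest p of 0.0556 and cannot pass. They gave 1.19 and 0.57 for the antisense 22-to-21-nt ratio and 1.52 and 0.85 for the antisense over sense quotient (0.0787 and 0.236 for both).

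The antisense ratio and the quotient between hairpins also lost their calls as shares of 20 to 24 nt (0.36 and 0.61; 0.200 and 0.157), with run 4 alone (0.79 and 1.02; 0.0572 and 0.0525), with same-numbered libraries averaged (0.66 and 0.87; 0.0525 for both) and in the second table only (0.36 and 0.61; 0.294 and 0.118). With Col-0 as an added stratum the antisense ratio no longer passed (0.55, 0.0962) and the sense ratio did (-0.30, 0.0262). Leaving out each library gave 0.55 to 1.06 for the antisense ratio, -0.33 to -0.16 for the sense ratio and 0.80 to 1.31 for the quotient. The strand comparison within WT libraries gave -1.06 to -0.73 with each library left out, -0.89 (0.0625) with same-numbered libraries averaged and -0.71 (0.167) in the second table only, where fewer libraries limit the smallest p. Within G:U libraries it gave -0.14 to 0.0384, the highest without ocp11 G:U library 6.

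For mutants against Col-0, run 3 alone passed on the antisense (-0.94) and sense (-0.91) strands (0.0453 for both), and leaving out each library gave -1.01 to -0.52 and -0.94 to -0.73. Adding the Columbia controls gave 0.0264 for the strand ratio, -0.58 for the sense ratio (0.0139) and 0.29 for the quotient. The quotient, -0.07 in the main comparison, was 0.21 without Col-0 WT library 15, 0.0485 without ocp11 G:U library 6 (range -0.16 to 0.21) and 0.0206 as a difference of linear ratios. The antisense ratio of nrpd1a against ocp11, -0.02, was 0.13 as a share of 20 to 24 nt, 0.0490 in run 1 alone, 0.00897 as a linear ratio and 0.00841 without ocp11 WT library 11 (range -0.0569 to 0.00841). In the test of hairpin by background, adding the Columbia controls gave -0.0886 for the antisense ratio and -0.30 for the quotient, and the share of 20 to 24 nt gave -0.14 for the quotient. The quotient between tables was -0.14 without Col-0 WT library 15 (range -0.14 to 0.91).

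The replicate block, pairing same-numbered libraries of both tables, gave 0.98 for the strand ratio, 1.07 for the antisense ratio, 0.51 for the sense ratio and 0.56 for the quotient, and with 3 pairs its exact p cannot go below 0.25. It changed no call. The labels do not say what an equal number marks, and other groups share too few numbers to pair. Without the single Col-0 WT library the test of hairpin by background cannot be formed. A scaling between libraries does not enter a ratio within a library. Depth limited the nrpd1a WT libraries most.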

Other observations

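In G:U libraries the share of sense reads that lay on the WT stem was higher at 22 nt than at 21 nt in 8 of 8 libraries. It was 0.920% against 0.792% and 1.00% against 0.663% in Columbia libraries 12 and 13, and 2.33% against 1.43% and 2.38% against 1.30% in Col-0 libraries 12 and 13. In nrpd1a libraries 2 and 18 it was 1.82% against 0.459% and 0.496% against 0.202%, and in ocp11 libraries 4 and 6 it was 0.125% against 0.0979% and 0.738% against 0.519%. The share of antisense reads on the GU stem was higher at 22 nt in 7 of 8 libraries, Columbia library 12 being the exception with 0.139% against 0.226%. Those 22-nt shares rested on few reads, from 2 in Columbia library 12 to 205 in ocp11 library 6. In Col-0 library 12 the share was 0.145% (3 reads) against 0.127%, and in library 13 it was 0.188% (5 reads) against 0.186%, nearly equal. The widest gap was in ocp11 library 6, with 2.04% at 22 nt and 0.556% at 21 nt. These comparisons were made after the values were seen and have no test, and how reads that fit both stems were counted is not given in the sources used here.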
